A study of Mus musculus with 21 samples.

Results

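LSKCD201+ cells made in culture from mouse pluripotent stem cells (D5-LSKCD201+) were compared with LSKCD201+ cells of adult bone marrow (BM-LSKCD201+). LSK cells lack the markers of mature blood lineages and carry Sca-1, coded by Ly6a, and the SCF receptor c-kit, and CD201 is the endothelial protein C receptor, coded by Procr. The comparison took the 6 libraries of both groups, out of 15 sorted-cell libraries in the expression table and 21 samples in the series, and every one of the 27968 genes listed. The D5-LSKCD201+ cells came from 129/ola pluripotent stem cells that had formed embryoid bodies and colonies in a self-assembling peptide gel and were then grown on mitomycin C-treated OP9 stromal cells with SCF, IL-3 and Flt3 ligand, and they were sorted on day 5 of that coculture. The strain is as labelled, while the methods name stem cells of both 129/ola and C57BL/6 mice. The BM-LSKCD201+ cells came from C57BL/6 mice aged 6 to 8 weeks. Strain, culture, developmental stage and tissue therefore changed together between the groups, and their parts in a difference cannot be told apart. FL-LSKCD201+ cells, the LSKCD201+ population of C57BL/6 fetal liver at mid-gestation, are given beside some results. The antibodies that the methods name for sorting are against c-kit, lineage markers and CD201.

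In the embryo, hematopoietic stem cells (HSCs) emerge from endothelial cells of the great arteries, the hemogenic endothelium, in a step that needs the transcription factor Runx1. The emerging cells lose endothelial junction genes, gain the pan-leukocyte phosphatase CD45, coded by Ptprc, expand in the fetal liver and finally rest in the bone marrow. CD201 marks HSCs of the marrow and fetal liver and is also carried by endothelial cells.

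Expression was given as FPKM, a count of fragments scaled by transcript length and library size. The FPKM values summed to 508622 to 517005 in the 3 D5-LSKCD201+ libraries and to 554191 to 608607 in the 3 BM-LSKCD201+ libraries, and the number of reads behind them is not known from these values. On log2(FPKM + 1), pairs of D5-LSKCD201+ libraries had a Pearson correlation across genes of 0.9959 to 0.9974. BM-LSKCD201+ library 1 stood somewhat apart from libraries 2 and 3: it correlated with them at 0.9874 and 0.9869, against 0.9978 between libraries 2 and 3, and differed from their mean by more than 1 log2 unit at 212 of 13775 genes, against 14 genes between libraries 2 and 3. Correlations between the groups ran from 0.6894 to 0.7015. Without library 1, the calls described next numbered 2404 higher and 3782 lower. The labels number the 3 libraries of a group and the methods call them biological replicates. The study ascribes its D5-LSKCD201+ expression values to independent experiments, and the sources used here do not say whether the BM-LSKCD201+ libraries came from separate animals, so p-values measure the spread between these libraries.

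A gene was called where limma gave an adjusted p under 0.05 and a fold change of at least 1 on the log2(FPKM + 1) scale, a scale that understates the change of genes with low values. The test covered the 13775 genes whose mean FPKM across both groups reached 0.5, and 6159 of them (44.7%) were called. In D5-LSKCD201+, 2406 genes (17.5% of those tested) were higher and 3753 (27.2%) were lower. These shares are the background for the count of each gene list given here. A gene near 0 in either group could pass the filter only through its level in the other. In lists with many such genes, the share of tested members called in that direction was therefore partly set by the filter. The median log2 fold change over all genes tested was -0.23, and under quantile normalization, which moved it to -0.02, the split was 2890 higher and 3007 lower. The genes with the largest increases were Mest, an imprinted hydrolase of embryonic tissue, with 2400.4, 2490.4 and 2484 FPKM in D5-LSKCD201+ and 0.526, 1.48 and 1.61 FPKM in BM-LSKCD201+, the matrix protein gene Sparc, the fetal growth factor Igf2, the IGF-binding protein gene Igfbp3 and Plvap, which codes for the diaphragm protein of endothelial fenestrae. At the other end stood Rgs1, a regulator of G-protein signalling in leukocytes, with 0.290, 0.394 and 0.333 FPKM against 414, 436 and 435 FPKM, then the CD45-associated protein gene Ptprcap, the MHC class II chaperone gene Cd74, the lymphotoxin gene Ltb and the cytokine receptor gene Flt3. These 10 genes were ranked among called genes whose values did not overlap between the groups. Of all genes tested, 85.3% did not overlap (35.2% with the D5-LSKCD201+ libraries higher and 50.1% with them lower). Col18a1, Fn1, Ramp2 and Rasip1, described below, and Plac1, Cav1, Gap43, Tspan18, S100a16 and Kcne3 made up the rest of the 15 largest increases. Cav1, the caveolin gene of endothelial and other flat cells, was at 215, 221 and 218 FPKM against 0, 0.144 and 0.127 FPKM, and Plac1, a gene of placenta, was at 269.6, 262 and 269 FPKM against 0, 0.267 and 0.203 FPKM. The rest of the 15 largest decreases were Prtn3, Lyz2 and Selplg, described below, and Ramp1, H2-Aa, Bin2, Wfdc17, Tgtp2, H2-DMa and Shisa8. H2-Aa, an MHC class II chain gene, was at 0.0854, 0.0655 and 0 FPKM against 147, 152 and 155 FPKM, and Tgtp2, an interferon-induced GTPase gene, was at 0.172, 0.510 and 0.369 FPKM against 159.9, 159 and 161 FPKM. The plot of all genes tested shows where they lie, and the plot of gene lists shows the calls in each of 30 lists of genes of known role.

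**Figure D1:**
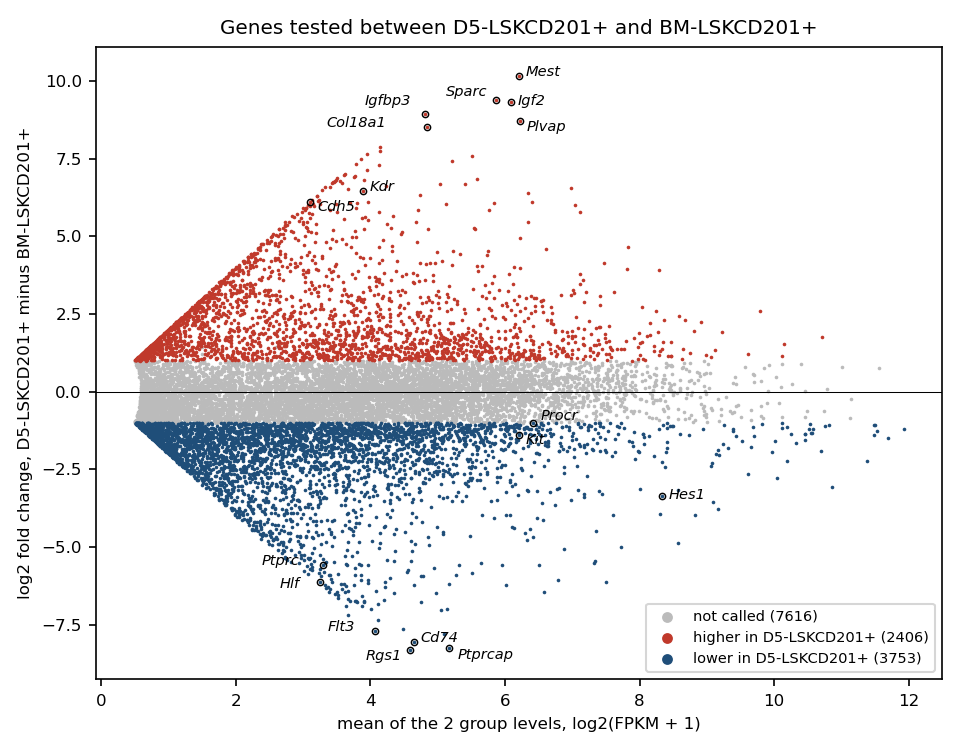
Each point is 1 of the 13775 genes tested, with the mean of both group levels on the horizontal axis in log2(FPKM + 1) and the log2 fold change of D5-LSKCD201+ over BM-LSKCD201+ on the vertical axis. Red points (2406) were called higher and blue points (3753) lower in D5-LSKCD201+, and the straight outer edges are genes near 0 in 1 group.

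**Figure D2:**
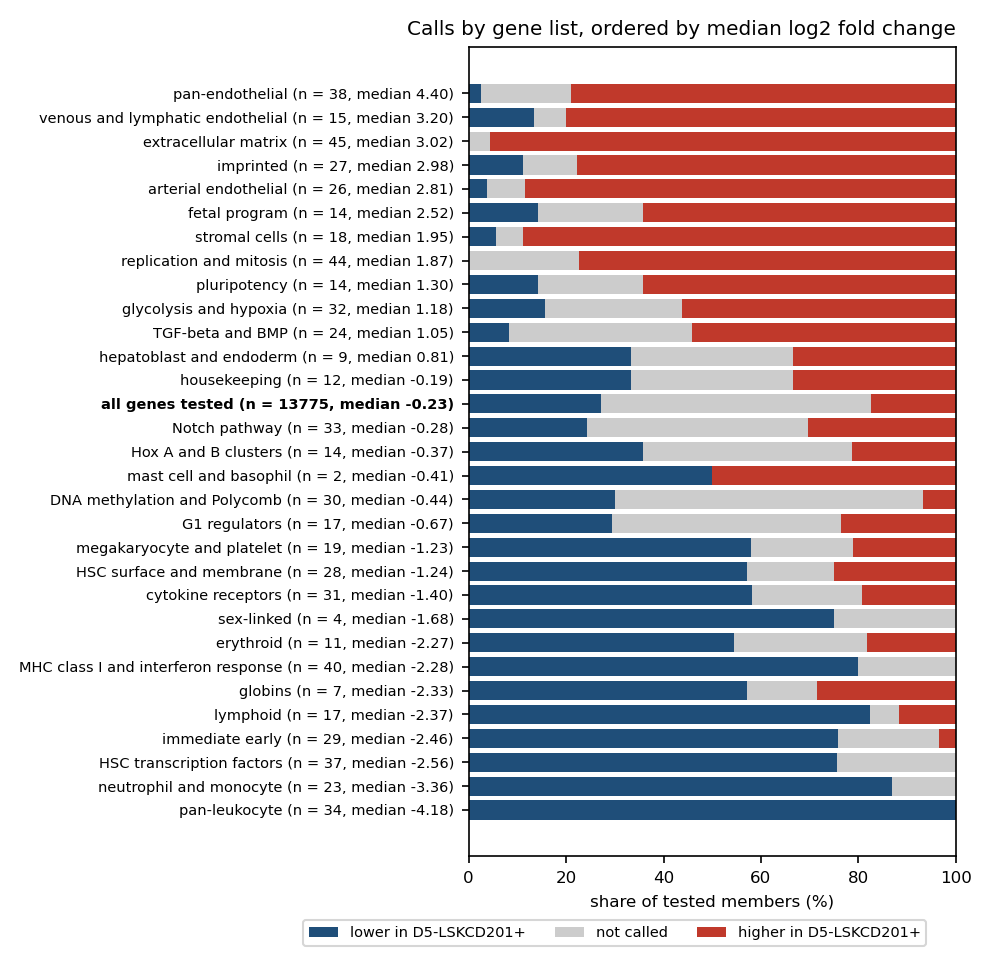
Horizontal bars give, for each gene list, the share of tested members in percent that were called lower (blue), not called (grey) or called higher (red) in D5-LSKCD201+, with the number tested and the median log2 fold change beside the name. The pan-leukocyte list is blue throughout (34 of 34), the matrix and endothelial lists are mostly red, and the bar of all genes tested is in bold.

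The genes of the sort were present in both groups and lower in D5-LSKCD201+. Procr (ENSMUSG00000027611, chromosome 2, 155751117 to 155755471) was at 59.2, 61.9 and 57.9 FPKM in D5-LSKCD201+ and at 117, 123 and 121 FPKM in BM-LSKCD201+ (log2 fold change -1.001 ± 0.05 (SE), adjusted p = 6.29e-07). Kit (ENSMUSG00000005672, chromosome 5, 75574916 to 75656722) was at 47.8, 42.3 and 43.4 FPKM against 119, 120.01 and 117 FPKM (-1.40 ± 0.06). Ly6a (ENSMUSG00000075602, chromosome 15, 74994877 to 74998031) was at 64.2, 57.6 and 62.1 FPKM against 189, 216 and 218 FPKM (-1.74 ± 0.07). The groups did not overlap at these genes, as at 85.3% of all genes tested (50.1% with D5-LSKCD201+ lower), and Procr lay at the edge of the fold limit: its call was lost without D5-LSKCD201+ library 1 or 3 (-0.9961 and -0.98) and without BM-LSKCD201+ library 2 or 3 (-0.98 and -0.9992). The levels of these genes in D5-LSKCD201+ were nearer to those in FL-LSKCD201+ than to those in BM-LSKCD201+. In FL-LSKCD201+ Procr was at 66.6, 69.3 and 69.4, Kit at 68.1, 40.04 and 45.5 and Ly6a at 45.8, 36.8 and 39.1 FPKM.

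Of 28 tested genes of HSC surface and membrane proteins, 16 were lower and 7 higher, with a median of -1.24, beside 27.2% and 17.5% of all genes. The largest decreases were those of Cd27, a TNF-receptor family member of hematopoietic progenitors (0.493, 0.368 and 0.463 against 139, 160.2 and 162 FPKM), Pdzk1ip1 (0.796, 0.775 and 0.831 against 179.7, 193 and 184 FPKM) and the interferon-inducible Ifitm1 (21.8, 25.8 and 23.2 against 878, 1125 and 1209 FPKM). The SLAM family gene Slamf1, which codes for the HSC marker CD150, was listed at 0.0274, 0 and 0 FPKM in D5-LSKCD201+ and at 2.28, 1.801 and 1.76 FPKM in BM-LSKCD201+, and Cd48 at 0, 0.112 and 0.0366 against 35.3, 35.8 and 34.4 FPKM. Both were therefore at or close to 0 in D5-LSKCD201+. Members that rose included genes of endothelium. Esam, a junction molecule, was at 365, 378 and 374 FPKM against 44.6, 40.5 and 40.8 FPKM (log2 fold change 3.12 ± 0.05 (SE), adjusted p = 4.58e-09). The receptor gene Gprc5c was at 41.02, 42.8 and 39.9 against 0, 0.0249 and 0.113 FPKM. Fgd5, an exchange factor of vascular and stem cells, was at 23.4, 25.3 and 25.3 against 4.78, 6.99 and 7.295 FPKM. Eng, Cd93, Abcg2 and Neo1 were the other members called higher. The tetraspanin genes Cd81 (log2 fold change 0.35), Cd9 (0.41) and Cd63 (-0.33), among the most abundant of the list, were not called.

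Genes used throughout the leukocyte lineages were lower in D5-LSKCD201+: all 34 genes of the list were tested and called, with a median of -4.18, beside 27.2% of all genes called lower. Ptprc (ENSMUSG00000026395, chromosome 1, 138062861 to 138175708), whose product CD45 is on all nucleated blood cells, was at 0.305, 0.321 and 0.602 FPKM in D5-LSKCD201+ and at 71.6, 64.3 and 64.4 FPKM in BM-LSKCD201+ (log2 fold change -5.59 ± 0.10 (SE), adjusted p = 6.65e-09). In FL-LSKCD201+ it was at 52.1, 38.4 and 39.9 FPKM. The CD45 gene was thus close to 0 in all 3 D5-LSKCD201+ libraries and well above 0 in every library of marrow and fetal liver. Ptprcap, whose product binds CD45, was at 0.878, 1.42 and 0.871 against 532, 666 and 688 FPKM. Selplg, the P-selectin ligand of leukocytes, was at 0.110, 0.297 and 0.902 against 177, 175 and 184 FPKM. The thromboxane synthase gene Tbxas1 was at 0.0966, 0.248 and 0.443 against 137, 129 and 134 FPKM. The actin regulators of leukocytes were lower but not at 0: Coro1a was at 11.04, 13.1 and 12.4 against 561, 655 and 665 FPKM. Lcp1 was at 96.8, 89.97 and 89.9 against 299, 289 and 287 FPKM. Arhgdib, the most abundant of the list, was at 334, 344 and 336 FPKM against 1120.4, 1212 and 1265 FPKM. Laptm5, a lysosomal membrane protein gene of hematopoietic cells, was at 17.9, 20.3 and 19.4 FPKM against 621, 695 and 723 FPKM. The summed level of the list was 610.2 to 621 FPKM in D5-LSKCD201+, 5567 to 6115 FPKM in BM-LSKCD201+ and 4082 to 4455 FPKM in FL-LSKCD201+. In FL-LSKCD201+, 10 of the 34 genes were lower than in BM-LSKCD201+ and 0 higher (4 at an unadjusted p under 0.05 with no fold limit) in the limma test of those groups, which uses the same bone marrow libraries and called 11.3% of genes lower and 7.78% higher. In bulk libraries, fewer cells that carry a transcript cannot be told apart from less transcript per cell.

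Endothelial genes went the other way. Of 38 pan-endothelial genes, all tested, 30 were higher in D5-LSKCD201+ and 1 was lower, with a median of 4.40, beside 17.5% of all genes called higher. Cdh5 (ENSMUSG00000031871, chromosome 8, 104088916 to 104144511), which codes for the endothelial junction protein VE-cadherin, was at 67.6, 73.6 and 71.2 FPKM in D5-LSKCD201+ and at 0, 0.0431 and 0.0645 FPKM in BM-LSKCD201+ (log2 fold change 6.11 ± 0.07 (SE), adjusted p = 1.61e-09). Kdr (ENSMUSG00000062960, chromosome 5, 75932827 to 75978458), the VEGF receptor also called Flk1, was at 143, 134 and 133 against 0.248, 0.749 and 0.773 FPKM. Etv2, the ETS factor that starts the endothelial and blood program from mesoderm, was at 43.2, 42.2 and 42.8 FPKM and was listed at 0 in every BM-LSKCD201+ library. The groups did not overlap at these 3 genes, as at 85.3% of all genes tested (35.2% with D5-LSKCD201+ higher). Plvap (1457, 1476 and 1454 against 0.808, 3.21 and 4.49 FPKM), the adrenomedullin receptor component gene Ramp2 (669, 593 and 626 against 1.57, 2.88 and 2.52 FPKM) and the endothelial tube regulator gene Rasip1 (488, 476 and 482 against 1.56, 2.28 and 1.74 FPKM) were the members with the largest increases. The SOX factors of endothelium were high as well: Sox18 was at 233, 233 and 235 against 0.967, 2.23 and 2.89 FPKM. Sox7 was at 70.4, 71.8 and 68.1 against 0.356, 0.0112 and 0.0447 FPKM. Sox17 was at 128, 115 and 121 against 0.105, 0.0362 and 0.359 FPKM. The angiopoietin receptor gene Tek rose (88.8, 86.3 and 83.1 against 2.67, 2.42 and 2.37 FPKM) and so did Egfl7 (504, 479 and 501 against 178, 211 and 215 FPKM), while Vwf, the von Willebrand factor gene, at 6.03, 7.29 and 7.22 against 3.44, 3.597 and 3.72 FPKM, did not reach the fold limit (0.77). The member that fell was Myct1, at 18.5, 20.5 and 18.8 against 109, 109 and 107 FPKM. In FL-LSKCD201+, Cdh5 was at 0.733, 1.05 and 1.605 FPKM and Kdr at 0.924, 1.06 and 0.813 FPKM, and of 31 genes of the list tested against BM-LSKCD201+, 10 were higher and 1 was lower, beside 7.78% and 11.3% of all genes.

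Arterial genes were part of this. Of 26 genes, 23 were higher, 1 was lower and the median was 2.81. Igfbp3 was at 615, 614 and 621 FPKM against 0, 0.379 and 0.480 FPKM. The connexin genes of arterial endothelium Gja5 and Gja4 were at 132, 136 and 136 FPKM and 110.4, 106 and 110.1 FPKM in D5-LSKCD201+, against 0.0752, 0.0965 and 0.114 FPKM and 0, 0.0756 and 0.0998 FPKM in BM-LSKCD201+. Dll4, the arterial Notch ligand, was at 39.9, 38.8 and 39.1 against 1.34, 0.547 and 0.542 FPKM (log2 fold change 4.50 ± 0.16 (SE), adjusted p = 1.68e-07). The arterial ephrin gene Efnb2 was at 12.6, 12.9 and 12.8 against 0.247, 0.264 and 0.314 FPKM. Nos3, the endothelial nitric oxide synthase gene of the pan-endothelial list, was at 118, 118 and 115 against 0, 0.0432 and 0.138 FPKM. Epas1, Vegfc and Hey1 were also called higher. The chemokine receptor gene Cxcr4 was the arterial-list member that fell (1.19, 1.04 and 1.24 against 4.21, 4.96 and 4.93 FPKM). Of 15 venous and lymphatic genes tested, 12 were higher and 2 lower: the apelin receptor gene Aplnr was at 117, 109 and 107 against 0.0101, 0.0528 and 0.0838 FPKM. The scavenger receptor gene Stab1 was at 31.4, 33.4 and 33.6 against 0.0214, 0.0135 and 0 FPKM. The venous ephrin receptor gene Ephb4 was at 72.1, 72.9 and 69.5 against 3.9002, 2.78 and 2.87 FPKM. Mrc1, the mannose receptor gene of macrophages and sinusoidal vessels, was at 37.3, 37.3 and 35.3 against 1.44, 0.855 and 0.813 FPKM. The venous nuclear receptor gene Nr2f2 was at 7.76, 8.88 and 7.91 FPKM and was listed at 0 in all BM-LSKCD201+ libraries. Selp and Fgl2 fell. Most tested arterial and venous genes were thus higher, beside 17.5% of all genes called higher and 27.2% called lower. Of all 26 arterial genes listed, 19 averaged under 1 FPKM in BM-LSKCD201+ and 0 in D5-LSKCD201+. Of all 18 venous and lymphatic genes listed, 13 did so in BM-LSKCD201+ and 5 in D5-LSKCD201+. Genes near 0 in BM-LSKCD201+ could pass the filter only through their D5-LSKCD201+ level, so the shares higher were partly set by it. The plot of leukocyte, endothelial and matrix genes shows the lists on either side of the line of equal level.

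**Figure D3:**
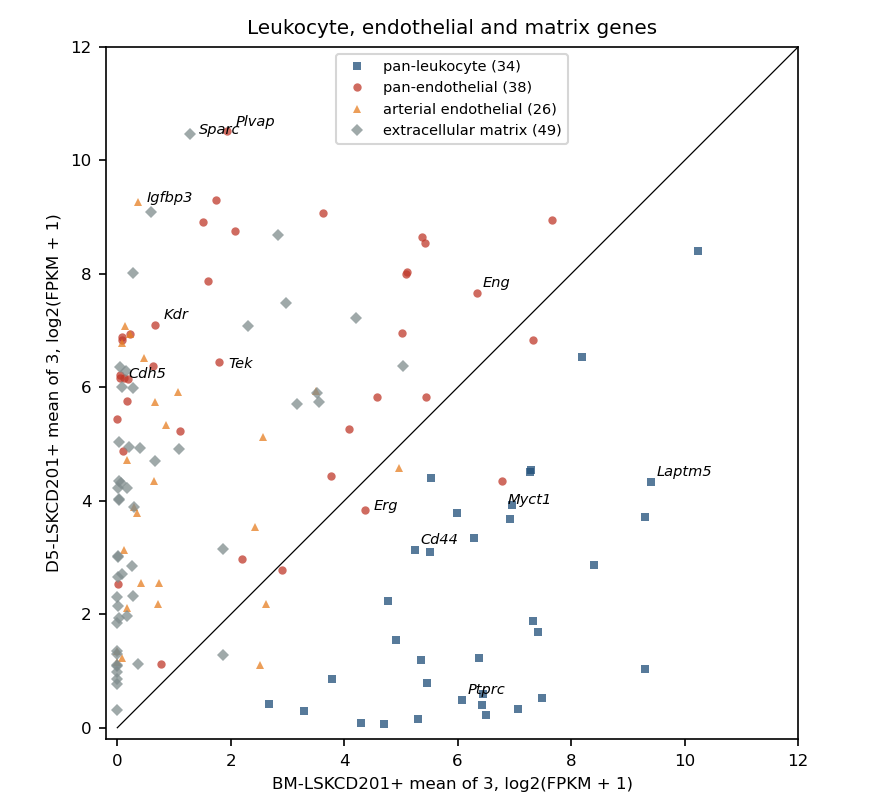
Each point is a gene, placed by its mean level over 3 libraries in BM-LSKCD201+ (horizontal axis) and in D5-LSKCD201+ (vertical axis), both in log2(FPKM + 1), and the line marks equal levels. The pan-leukocyte genes (blue squares) all lie below the line, most pan-endothelial (red circles), arterial (orange triangles) and matrix genes (grey diamonds) lie above it, and Erg and Myct1 are among the endothelial genes below it.

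Transcription factors of HSCs were mostly lower, but several that endothelium shares were not called. Of 38 genes, 37 were tested and 28 were lower in D5-LSKCD201+, with a median of -2.56. By limma 0 were higher under both limits, 3 were higher at an unadjusted p under 0.05 with no fold limit, and 1 was higher under quantile normalization. The steepest decreases were those of Myb (ENSMUSG00000019982, chromosome 10, 21124935 to 21160984), the factor of definitive hematopoiesis, at 0.488, 0.39979 and 0.457 FPKM against 151, 157 and 158 FPKM (log2 fold change -6.76 ± 0.06 (SE), adjusted p = 7.38e-10), of Hlf (ENSMUSG00000003949, chromosome 11, 90336536 to 90390895), the bZIP factor that marks HSCs, at 0.148, 0.104 and 0.183 FPKM against 86.3, 72.9 and 75.9 FPKM (log2 fold change -6.11 ± 0.08 (SE), adjusted p = 2.49e-09), and of Nfe2 at 3.93, 3.65 and 4.53 FPKM against 287, 302 and 298 FPKM. Runx1 (ENSMUSG00000022952, chromosome 16, 92601466 to 92826149) was at 1.89, 2.09 and 1.41 FPKM in D5-LSKCD201+ and at 51.3, 60.6 and 60.7 FPKM in BM-LSKCD201+ (log2 fold change -4.39 ± 0.12 (SE), adjusted p = 3.36e-08). Each of these was at a small part of its marrow level in every D5-LSKCD201+ library. Hoxa9, the homeobox gene of HSC self-renewal, was at 1.195, 1.14 and 1.397 against 101, 112 and 108 FPKM. The lymphoid factor gene Ikzf1 was at 0.425, 0.577 and 0.594 against 57.7, 65.8 and 64.1 FPKM, and Spi1, which codes for PU.1, was at 13.1, 12.3 and 13.5 against 209.6, 242 and 241 FPKM.

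The 9 genes not called were Fli1, Erg, Tal1, Mecom, Hoxb4, Hoxb5, Gata3, Cbfb and Mycn. Fli1, an ETS factor shared by blood and vessels, was at 54.95, 55.8 and 56.9 FPKM in D5-LSKCD201+ and at 41.5, 42.7 and 43.1 FPKM in BM-LSKCD201+ (log2 fold change 0.39). Erg, its relative, was at 12.3, 15.3 and 12.6 against 22.1, 17.1 and 19.6 FPKM (-0.52). Tal1, the bHLH factor of early blood, was at 5.01, 5.88 and 6.64 against 5.05, 6.799 and 7.53 FPKM (-0.12). Mecom, which codes for EVI1, was at 25.8, 22.4 and 20.2 against 34.4, 28.6 and 28.02 FPKM (-0.40). Fli1 was slightly higher and Erg and Mecom slightly lower with no overlap between libraries, the groups overlapped at Tal1, and none reached the fold limit. Hoxb4 was at 1.61, 1.54 and 1.72 against 2.36, 2.34 and 1.91 FPKM. Hoxb5 was at 6.0996, 5.75 and 6.05 against 2.88, 2.798 and 2.53 FPKM (0.90) and was the gene called higher under quantile normalization (1.26). Both were low in either group. Other genes were called lower and yet stayed above 1 FPKM. Lyl1 was at 43.6, 46.6 and 48.2 against 105, 104 and 105 FPKM. Hhex was at 65.99, 67.7 and 66.4 against 151, 155 and 153 FPKM. Gata2, which hemogenic endothelium and HSCs both need, was at 19.8, 21.1 and 22.1 against 101, 99.96 and 102 FPKM (-2.21). Meis1 was at 18.2, 16.5 and 15.7 against 141, 121 and 123 FPKM (-2.86). Lmo2, the bridging partner of Tal1, was at 18.8, 24.97 and 24.6 against 1009, 1116 and 1113 FPKM (-5.51). The nuclear receptor gene Rora was at 1.16, 1.85 and 1.79 against 20.1, 12.3 and 13.2 FPKM. In FL-LSKCD201+ the same genes were nearer to marrow: Runx1 was at 40.6, 41.6 and 44.4 FPKM, Myb at 96.1, 77.8 and 80.003 FPKM, Hoxa9 at 60.2, 80.4 and 78.9 FPKM and Hlf at 24.2, 26.7 and 26.01 FPKM, and of these only Hlf was called against BM-LSKCD201+ (-1.57), with Runx1 at -0.44, Myb at -0.88 and Hoxa9 at -0.55.

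**Figure D4:**
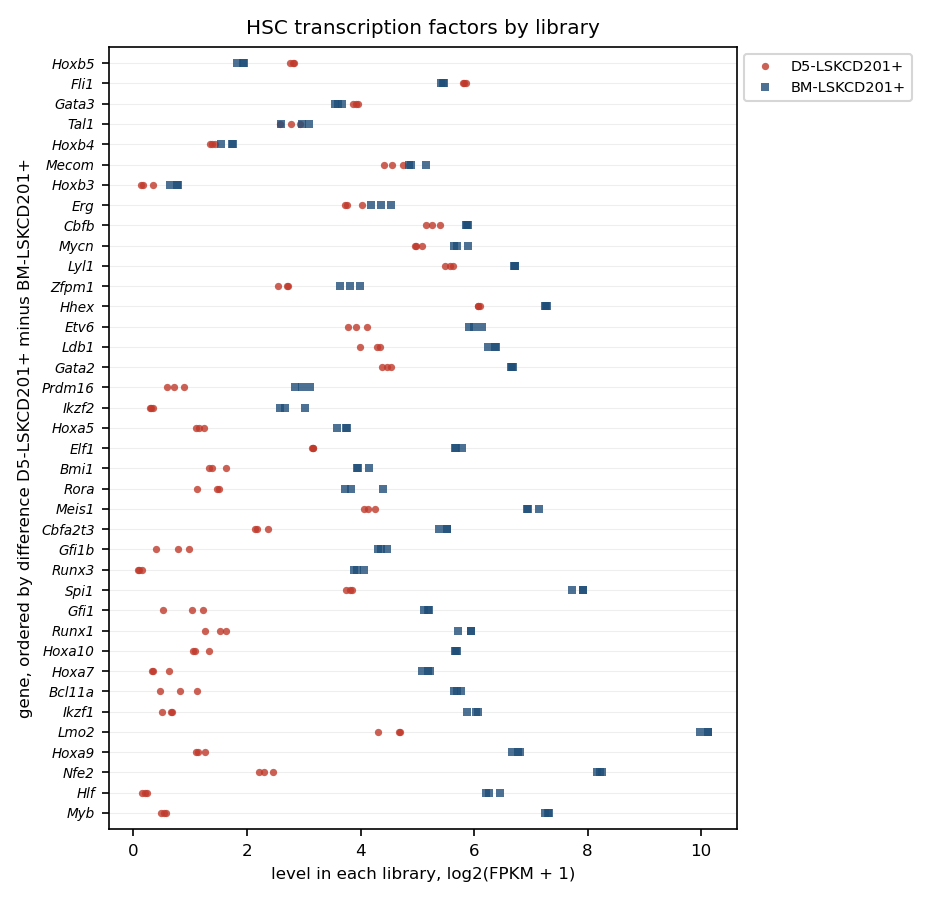
Each row is 1 of the 38 HSC transcription factor genes, with its level in log2(FPKM + 1) in the 3 D5-LSKCD201+ libraries (red circles) and the 3 BM-LSKCD201+ libraries (blue squares), ordered by the difference. The groups lie side by side from Hoxb5 to Mycn at the top and are furthest apart for Lmo2, Hoxa9, Nfe2, Hlf and Myb at the bottom.

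GATA, ETS and RUNX factors act on genes of blood and vessels, and their motifs were looked up in the promoters of these lists. Promoters from RefSeq (build GRCm38.p6), 250 bases before to 50 bases after the gene start, were searched on both strands. The letters searched were AGATAA for GATA factors. For ETS factors they were CCGGAA. For RUNX factors they were TGTGGT. None of these motifs contains another, and matches of 2 motifs may share an end base. Of the genes tested, 9902 had at least 1 such promoter. AGATAA was in 6.47% of promoters of genes called higher, 8.18% of those called lower and 6.58% of all promoters of tested genes. CCGGAA was in 19.1%, 21.5% and 26.6%, and TGTGGT in 12.6%, 13.9% and 12.7%. Shares over all 32817 promoters in the table were 11.2%, 14.9% and 16.8%. In the promoters of called list members, the GATA, ETS and RUNX letters were in 2, 1 and 0 of 17 pan-endothelial promoters, in 6, 4 and 7 of 32 pan-leukocyte promoters and in 1, 7 and 3 of 34 HSC transcription factor promoters. The following promoters belong to called members of the pan-endothelial, pan-leukocyte and HSC transcription factor lists. These members had the largest changes among those with 1 promoter entry and a match, with the genes of 1 chromosome left out of the choice. The promoters were thus chosen for holding a match, and the matches are in capitals.
Kdr (chr5:75978406-75978705, minus strand; higher in D5-LSKCD201+): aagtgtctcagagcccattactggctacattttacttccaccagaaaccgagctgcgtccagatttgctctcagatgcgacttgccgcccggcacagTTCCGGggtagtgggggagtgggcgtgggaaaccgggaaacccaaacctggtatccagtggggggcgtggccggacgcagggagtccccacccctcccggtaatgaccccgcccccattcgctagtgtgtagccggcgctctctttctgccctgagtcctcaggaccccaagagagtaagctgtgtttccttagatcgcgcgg
Tek (chr4:94739039-94739338, plus strand; higher): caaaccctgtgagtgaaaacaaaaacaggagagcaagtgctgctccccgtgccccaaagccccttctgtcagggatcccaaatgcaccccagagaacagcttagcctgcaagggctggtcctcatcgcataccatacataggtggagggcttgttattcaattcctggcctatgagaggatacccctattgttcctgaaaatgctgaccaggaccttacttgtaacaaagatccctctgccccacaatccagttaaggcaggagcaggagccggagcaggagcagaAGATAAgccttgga
Evi2b (chr11:79523713-79524012, minus strand; lower): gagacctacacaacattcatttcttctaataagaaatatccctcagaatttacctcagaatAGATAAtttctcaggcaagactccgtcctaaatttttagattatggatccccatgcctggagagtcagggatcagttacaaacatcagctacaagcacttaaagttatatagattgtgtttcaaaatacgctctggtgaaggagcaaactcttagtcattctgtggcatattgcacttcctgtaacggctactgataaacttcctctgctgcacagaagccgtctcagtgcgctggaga
Cd37 (chr7:45238790-45239089, minus strand; lower): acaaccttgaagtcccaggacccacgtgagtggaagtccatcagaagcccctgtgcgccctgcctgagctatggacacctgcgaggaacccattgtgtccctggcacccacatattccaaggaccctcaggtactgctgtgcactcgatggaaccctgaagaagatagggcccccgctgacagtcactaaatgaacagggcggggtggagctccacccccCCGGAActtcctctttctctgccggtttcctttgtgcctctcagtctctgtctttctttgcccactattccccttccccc
Hlf (chr11:90390868-90391167, minus strand; lower): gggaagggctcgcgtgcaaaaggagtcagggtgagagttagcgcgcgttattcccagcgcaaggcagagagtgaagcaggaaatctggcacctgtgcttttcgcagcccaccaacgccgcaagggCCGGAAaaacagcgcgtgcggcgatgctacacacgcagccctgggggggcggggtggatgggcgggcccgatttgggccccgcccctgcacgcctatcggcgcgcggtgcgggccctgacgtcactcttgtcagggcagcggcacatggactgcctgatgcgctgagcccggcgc
Meis1 (chr11:19018920-19019219, minus strand; lower): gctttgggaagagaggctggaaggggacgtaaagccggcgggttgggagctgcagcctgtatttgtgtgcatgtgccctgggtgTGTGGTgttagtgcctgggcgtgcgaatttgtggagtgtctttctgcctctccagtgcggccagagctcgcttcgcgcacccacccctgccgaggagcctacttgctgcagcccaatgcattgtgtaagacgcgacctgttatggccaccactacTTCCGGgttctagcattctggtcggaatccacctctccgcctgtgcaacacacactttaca
The ETS letters of Kdr lie on the opposite strand, 153 bases before the start, those of Cd37 and Hlf on the gene's strand, 30 and 125 bases before it, and Meis1 holds a RUNX match 166 bases and an ETS match 11 bases before its start. Evi2b has a GATA match 189 bases before the start and Tek 1 that begins 36 bases after it. A match of these letters describes the sequence and is not evidence of binding. Evi2b, a membrane protein gene of leukocytes, was at 0.338, 0.249 and 0.377 against 94.8, 78.1 and 82.4 FPKM. Cd37, a tetraspanin gene of leukocytes, was at 2.66, 2.79 and 2.64 against 152, 164 and 163 FPKM.

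The Notch pathway, through which arterial endothelium and emerging HSCs signal to each other, had members in both directions: of 33 genes tested, 10 were higher and 8 lower, with a median of -0.28, beside 17.5% of all genes called higher and 27.2% called lower. The share lower was thus near that of all genes. Under quantile normalization, 12 Notch genes were higher and 6 lower, with a median of 0.013. Among ligands and receptors, Dll4 and Dll1 (5.98, 6.21 and 6.99 against 0.693, 0.235 and 0.309 FPKM) rose, as did the endothelial receptor gene Notch4 (20.04, 18.7 and 19.5 against 0.384, 0.537 and 0.798 FPKM) and Notch1 (11.2, 10.9 and 9.61 against 5.28, 3.87 and 4.06 FPKM), while Notch2 fell (0.535, 0.677 and 0.617 against 7.42, 5.997 and 6.39 FPKM). Among targets, Hes1 (ENSMUSG00000022528, chromosome 16, 30064384 to 30067796), the repressor that Notch induces in many tissues, was at 93.1, 102 and 105 FPKM in D5-LSKCD201+, 1034, 1039 and 1001 FPKM in BM-LSKCD201+ and 129, 165 and 164 FPKM in FL-LSKCD201+ (D5-LSKCD201+ against BM-LSKCD201+ -3.35, FL-LSKCD201+ against BM-LSKCD201+ -2.75). Hes5 was near 0 in D5-LSKCD201+ (0.112, 0 and 0 against 6.92, 8.34 and 7.84 FPKM). The vascular target Hey1 went up, from 3.16, 5.76 and 5.92 FPKM to 34.5, 33.6 and 33.8 FPKM, and so did the feedback inhibitor gene Nrarp, from 19.6, 24.9 and 22.6 FPKM to 104, 107 and 102 FPKM. Of the HES and HEY genes tested, Hes1, Hes5 and Hes6 were lower and Hey1 and Hey2 higher. The glycosyltransferase gene Mfng, the most abundant member after Hes1 over both groups, was not called (-0.76).

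Of 31 cytokine receptor genes tested, 18 were lower and 6 higher, beside 27.2% and 17.5% of all genes, so the share higher was near that of all genes. Flt3, the receptor of a ligand that was in the coculture medium, was at 0.110, 0.217 and 0.152 FPKM in D5-LSKCD201+ and 255, 233 and 237 FPKM in BM-LSKCD201+ (log2 fold change -7.71 ± 0.07 (SE), adjusted p = 7.38e-10). Csf3r, the G-CSF receptor gene, was at 0.845, 1.17 and 0.705 against 40.4, 43.6 and 43.1 FPKM. Both were far below marrow in each library. Receptors for the other supplied cytokines differed less: Il3ra was at 5.89, 4.91 and 5.54 against 5.5005, 6.54 and 6.15 FPKM (-0.13, not called). The common beta chain gene Csf2rb was at 17.2, 17.5 and 17.9 against 8.21, 7.55 and 7.72 FPKM (1.07). The erythropoietin receptor gene Epor (15.6, 17.4 and 19.7 against 1.51, 1.66 and 2.099 FPKM), the LIF receptor gene Lifr (7.25, 6.55 and 6.03 against 0, 0.323 and 0.231 FPKM) and its partner Il6st (10.2, 10.6 and 10.2 against 2.46, 2.17 and 2.19 FPKM) had the largest increases. Il2rg, among the most abundant receptors, was at 93.9, 92.9 and 92.4 against 198, 208 and 208 FPKM.

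Tested genes of the mature blood lineages were mostly lower in D5-LSKCD201+, and several listed genes were low in both groups. In the neutrophil and monocyte list, 20 of 23 tested genes fell and 0 rose by limma (0 at an unadjusted p under 0.05 with no fold limit): the protease gene Prtn3 was at 0.727, 0.570 and 0.464 against 251, 341 and 357 FPKM. The lysozyme gene Lyz2 was at 1.84, 1.88 and 2.05 against 360.1, 387 and 386 FPKM. The granule gene Ngp was at 0.240, 0.222 and 0.171 against 86.8, 109.8 and 120.3 FPKM. Cebpb, the most abundant member, was at 12.6, 14.5 and 16.1 FPKM against 328, 463 and 466 FPKM. The neutrophil elastase gene Elane was under 1 FPKM in all 6 libraries. Of 17 lymphoid genes tested, 14 fell, led by the immunoglobulin gene Ighm (0.155, 0.0363 and 0.273 against 110.1, 117 and 114 FPKM), Nkg7 (0, 0.0786 and 0.260 against 87.9, 102 and 100.05 FPKM) and the terminal transferase gene Dntt (0.0483, 0.0281 and 0.118 against 22.2, 25.9 and 25.96 FPKM). Ebf1, a B-cell factor that mesenchymal cells also express, and Tcf7 rose, Ebf1 to 10.2, 11.04 and 10.7 FPKM from 0.0203, 0 and 0 FPKM. A gene near 0 in D5-LSKCD201+ could pass the filter only through its marrow level, so the share of tested genes that fell was partly set by it. Of all 26 neutrophil and monocyte genes listed, 19 averaged under 1 FPKM in D5-LSKCD201+ and 5 in BM-LSKCD201+. Of all 29 lymphoid genes listed, 24 averaged under 1 FPKM in D5-LSKCD201+ and 14 in BM-LSKCD201+. The marrow sort excluded lineage-positive cells.

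Of 19 megakaryocyte and platelet genes tested, 11 were lower and 4 higher, beside 27.2% and 17.5% of all genes, so the share higher was near that of all genes. Gp9 (0.0488, 0.172 and 0.204 against 17.4, 25.1 and 24.8 FPKM) and Plek (1.19, 1.41 and 1.25 against 39.6, 39.3 and 40.1 FPKM) fell. Itga2b, which codes for CD41, the first surface marker of embryonic blood, was higher (45.6, 45.4 and 44.4 against 11.3, 11.8 and 11.7 FPKM, 1.88 ± 0.05), as were the thrombin receptor gene F2r (240.4, 247 and 232 against 26.6, 28.1 and 28.5 FPKM) and Clec1b (29.2, 31.9 and 28.7 against 0.384, 0.736 and 0.679 FPKM), a gene that megakaryocytes and some endothelial cells share. Of 11 erythroid genes tested, 6 fell and 2 rose, the last a share near that of all genes: Epor and the membrane skeleton gene Add2 (10.4, 10.9 and 11.7 against 0.109, 0 and 0.0277 FPKM). The carbonic anhydrase genes Car1 and Car2 were at 0, 0.0538 and 0 against 5.56, 21.2 and 24.2 FPKM and at 154, 168 and 156 against 1814, 1878 and 1901 FPKM. Hemgn was at 0.0775, 0 and 0.0849 against 15.4, 12.6 and 12.7 FPKM. Gfi1b was at 0.310, 0.966 and 0.714 against 21.1, 18.7 and 19.4 FPKM. Klf1 was at 0.0949, 0.475 and 0.153 against 1.28, 7.904 and 9.301 FPKM, with BM-LSKCD201+ library 1 well under the others, and Gata1 was at 0.155, 0.530 and 0.534 against 1.54, 1.32 and 1.33 FPKM (not called, -0.78). The transferrin receptor gene Tfrc was not called (0.30). Adult globin genes were lower in D5-LSKCD201+: Hbb-bs was at 8.31, 8.96 and 10.6 against 132, 96.9 and 98.1 FPKM. Hbb-bt was at 4.75, 4.47 and 6.93 against 105, 119.9 and 119 FPKM. Hba-a1 was at 9.27, 9.26 and 11.97 against 77.4, 45.8 and 46.02 FPKM. Hba-a2 was at 6.34, 8.56 and 9.75 against 84.1, 38.1 and 41.6 FPKM. The embryonic globin genes Hbb-bh1 (10.7, 17.9 and 19.1 against 0, 0.127 and 0.129 FPKM) and Hba-x (3.69, 9.13 and 10.3 against 0, 0.0764 and 0.0532 FPKM) were higher, and Hbb-y was at 0.704, 1.54 and 0.925 against 0, 0.336 and 0.134 FPKM (not called). The adult genes and the embryonic genes called thus moved in opposite directions. The 7 genes summed to 43.8 to 69.5 FPKM in D5-LSKCD201+, 301 to 398 FPKM in BM-LSKCD201+ and 22373 to 46217 FPKM in FL-LSKCD201+. Globin copies are near-identical, so the split of reads between Hba-a1 and Hba-a2 and between Hbb-bs and Hbb-bt is uncertain.

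Mast cell and basophil genes were low in both groups, with 2 of the 11 genes found in the table tested (14 were listed): Hdc was at 1.93, 2.199 and 2.17 against 0.106, 0.569 and 0.369 FPKM. Cpa3 was at 0.0395, 0 and 0.0853 against 3.71, 3.09 and 3.08 FPKM. Hepatoblast genes such as Alb, Ttr and Apoa1 were under 1 FPKM in all 6 libraries. Of the 9 tested genes of the hepatoblast and endoderm list, 3 rose, Sox17 and the GATA factor genes of cardiac mesoderm and endoderm, Gata4 (34.6, 36.9 and 35.1 against 0, 0.192 and 0.0701 FPKM) and Gata6 (18.9, 20.1 and 20.9 against 0, 0.0596 and 0.039993 FPKM). Krt18 (5.07, 6.48 and 6.53 against 156, 166 and 159 FPKM), Hnf4a (0.150, 0.0637 and 0.0835 against 11.3, 10.3 and 10.8 FPKM) and Afp (0.406, 0.428 and 0.552 against 5.88, 9.505 and 6.52 FPKM) fell.

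Antigen presentation and interferon-response genes were lower in 32 of 40 tested and higher in 0 by limma (1 at an unadjusted p under 0.05 with no fold limit), with a median of -2.28. The MHC class I heavy chain gene H2-K1 was at 67.8, 72.3 and 67.98 FPKM in D5-LSKCD201+ and 1957, 2125 and 2135 FPKM in BM-LSKCD201+ (log2 fold change -4.88 ± 0.05 (SE), adjusted p = 1.28e-09). Its light chain gene B2m was at 396, 419 and 388 against 2734, 2666 and 2934 FPKM, and the immunoproteasome genes Psmb9 and Psmb8 were at 0.685, 0.779 and 1.03 against 119.6, 132 and 141 FPKM and at 4.24, 4.89 and 6.03 against 325, 341 and 350.1 FPKM. All were lower than in marrow and none was at 0, and B2m remained abundant in D5-LSKCD201+. In FL-LSKCD201+, H2-K1 was at 281, 262 and 255 FPKM, and 30 of 40 genes of the list were lower than in BM-LSKCD201+ in the test of those groups (11.3% of all genes). Bst2, Isg15, Stat2, Usp18, Rsad2, Mx2, Ifitm2 and Ifitm3 were not called in D5-LSKCD201+.

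Immediate early genes, which cells switch on within minutes of a stimulus, were lower in 22 of 29 tested and higher in 1, with a median of -2.46. Jund was at 15.1, 23.6 and 23.9 against 1227, 1694 and 1604 FPKM. The nuclear receptor gene Nr4a1 was at 12.98, 12.8 and 11.7 against 868, 905 and 915 FPKM. The mRNA-decay factor gene Zfp36 was at 13.8, 15.7 and 16.1 against 368, 384 and 382 FPKM. Ier2 (240.4, 224 and 235 against 1122, 1282 and 1276 FPKM), Fos (38.1, 35.2 and 37.1 against 436, 411 and 416 FPKM) and Fosb (2.35, 2.65 and 2.33 against 24.7, 28.9 and 25.3 FPKM) were lower too, and Atf3 was higher (44.04, 43.7 and 43.3 against 5.54, 8.498 and 8.804 FPKM). In FL-LSKCD201+, Nr4a1 was at 45.7, 33.6 and 32.2 FPKM and Fos at 73.4, 57.3 and 55.2 FPKM, and 21 of 29 genes were lower than in BM-LSKCD201+, beside 11.3% of all genes in that comparison.

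Genes of the fetal HSC program were mostly higher, 9 of 14 tested, with 2 lower and a median of 2.52. Those higher included Sox17, also in the endothelial and endoderm lists, Dlk1, also in the imprinted list, and Lin28a, also in the pluripotency list. The IGF2 mRNA-binding protein genes, which let-7 represses, rose together: Igf2bp3 was at 47.7, 52.98 and 50.02 FPKM against 0.0460, 0.558 and 0.380 FPKM (log2 fold change 5.29 ± 0.15 (SE), adjusted p = 4.39e-08). Igf2bp1 was at 29.7, 30.7 and 29.2 against 0, 0.124 and 0.0931 FPKM. Igf2bp2 was at 55.3, 55.2 and 52.6 against 3.88, 4.404 and 4.44 FPKM. Lin28b (ENSMUSG00000063804, chromosome 10, 45376620 to 45486395) was at 4.601, 4.23 and 4.06 against 0.0943, 0.0821 and 0.113 FPKM. Hmga2, which it raises in fetal HSCs, was at 33.6, 39.5 and 33.8 against 3.94, 3.05 and 3.17 FPKM. In FL-LSKCD201+, Lin28b was at 5.097, 6.79 and 6.38 FPKM, Igf2bp3 at 23.5, 26.005 and 23.98 FPKM and Hmga2 at 50.2, 60.3 and 63.6 FPKM, and 11 of 13 tested genes were higher than in BM-LSKCD201+ (7.78% of all genes) with 0 lower by limma (0 at an unadjusted p under 0.05 with no fold limit). Lin28a, its paralog of pluripotent cells, was at 4.75, 4.797 and 4.73 FPKM in D5-LSKCD201+ and 0.149, 0.204 and 0.137 FPKM in FL-LSKCD201+. The members that were not higher were Hmga1 and Mycn, not called, Acvr2b, which lay just under the fold limit and passed it without D5-LSKCD201+ library 2 or 3 (-1.05 and -1.10) or without BM-LSKCD201+ library 2 or 3 (-1.05 and -1.04), and Cited2 (36.98, 58.1 and 66.7 against 169, 181 and 180.5 FPKM) and Afp, which fell.

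Imprinted genes, expressed from 1 parental allele and many of them growth regulators of the embryo, rose in 21 of 27 tested and fell in 3, with a median of 2.98. Igf2 (ENSMUSG00000048583, chromosome 7, 142650766 to 142670356) was at 1699, 1654 and 1675 FPKM in D5-LSKCD201+, 0.727, 1.81 and 2.82 FPKM in BM-LSKCD201+ and 35.4, 46.4 and 47.997 FPKM in FL-LSKCD201+. H19, the noncoding RNA gene next to it, was at 9.96, 9.08 and 10.1, 0.674, 1.51 and 1.07 and 42.8, 82.7 and 81.1 FPKM in the same groups. Mest was at 2.97, 5.29 and 6.94 FPKM in FL-LSKCD201+, and Peg3 was at 118, 113 and 113 FPKM against 0.0198, 0.0586 and 0.101 FPKM. From the Dlk1 and Meg3 cluster, Dlk1 was at 126, 115 and 118 against 1.04, 1.66 and 3.26 FPKM. Meg3 was at 97.2, 91.6 and 85.3 against 1.14, 1.598 and 1.61 FPKM. Igf2 and Mest were thus many times more abundant in D5-LSKCD201+ than in either tissue group, while H19 was most abundant in FL-LSKCD201+. Cdkn1c (ENSMUSG00000037664, chromosome 7, 143458339 to 143461050), which codes for the cell-cycle inhibitor p57, was at 883, 878 and 884 FPKM in D5-LSKCD201+ and 56.9, 54.7 and 55.7 FPKM in BM-LSKCD201+ (log2 fold change 3.96 ± 0.04 (SE), adjusted p = 9.46e-10), and at 86.7, 94.6 and 96.5 FPKM in FL-LSKCD201+. Gnas, at 963, 1001 and 1011 against 604, 709 and 713 FPKM, did not reach the fold limit (0.56). Peg13 (0.0464, 0.0647 and 0.039983 against 13.7, 12.2 and 13.1 FPKM), Slc22a18 and Phlda2 fell. The plot of fetal program and imprinted genes sets the 3 groups beside each other.

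**Figure D5:**
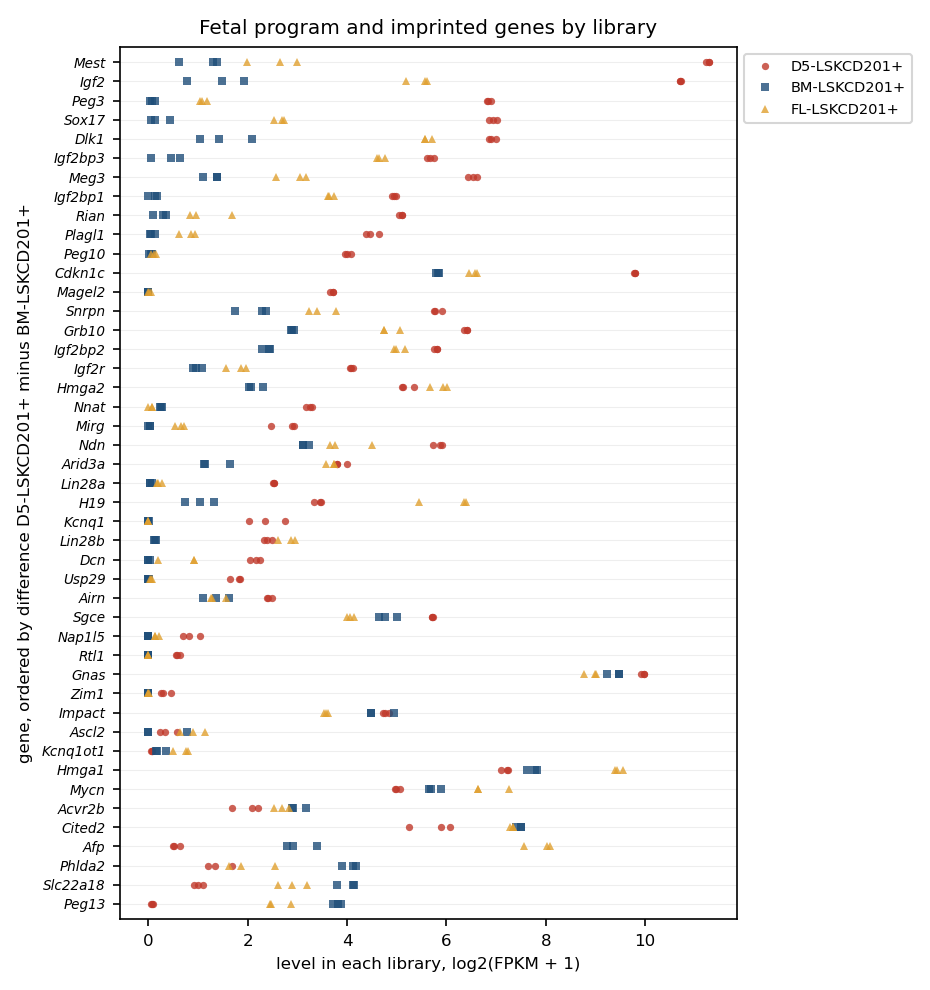
Each row is a gene of the fetal program or imprinted list, with its level in log2(FPKM + 1) in the 3 libraries of D5-LSKCD201+ (red circles), BM-LSKCD201+ (blue squares) and FL-LSKCD201+ (yellow triangles), ordered by the difference between D5-LSKCD201+ and BM-LSKCD201+. At Igf2bp1, Igf2bp3, Hmga2, Lin28b and Arid3a the fetal liver libraries lie nearer to D5-LSKCD201+, and at Mest, Peg3 and Peg10 nearer to bone marrow.

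The Hox A and B clusters, whose genes mark position along the body axis and the maturation of blood, had 5 of 14 tested genes lower and 3 higher, shares near those of all genes (27.2% lower and 17.5% higher). Besides Hoxa9, Hoxa7 (0.539, 0.250 and 0.276 against 35.4, 36.6 and 32.96 FPKM) and Hoxa10 (1.51, 1.12 and 1.07 against 50.8, 50.5 and 49.7 FPKM) fell, and Hoxa5 and Hoxa3 were the others. Hoxa13, the last gene of the cluster, was at 3.86, 4.002 and 4.81 FPKM and was listed at 0 in each BM-LSKCD201+ library. Hoxb7 (4.87, 4.41 and 5.01 against 0.556, 0 and 0 FPKM) and Hoxb8 (1.43, 1.17 and 1.0005 against 0, 0 and 0.0285 FPKM) were the other genes called higher. Hoxb2, the most abundant of these genes in D5-LSKCD201+ (12.3, 10.7 and 11.3 FPKM), did not reach the fold limit (0.44).

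Genes of DNA replication and mitosis were higher in 34 of 44 tested and lower in 0 by limma (3 at an unadjusted p under 0.05 with no fold limit), with a median of 1.87. The largest increases were those of Plk1, Ccnb1 and Kif20a. The mitotic kinase gene Plk1 was at 116, 115 and 115 FPKM against 4.19, 6.75 and 6.69 FPKM (log2 fold change 4.11 ± 0.15 (SE), adjusted p = 1.79e-07). The cyclin gene Ccnb1 was at 111, 110.5 and 113 against 7.56, 7.14 and 7.14 FPKM. Kif20a was at 60.8, 58.01 and 57.1 against 4.37, 4.702 and 4.2000 FPKM. The spindle kinase gene Aurka was at 97.4, 98.9 and 95.8 against 7.71, 10.4 and 10.3 FPKM. The 10 genes not called included Pcna, Mcm6, Mcm7 and Mki67. Pcna was at 90.6, 91.3 and 92.2 against 133, 131 and 135 FPKM (-0.54), Mcm6 at -0.30, Mcm7 at -0.14 and Mki67, the gene of the Ki67 antigen, at 6.04, 6.504 and 6.52 against 4.57, 3.38 and 3.46 FPKM (0.62). Birc5, the survivin gene, was higher (254, 244 and 248 against 29.2, 29.95 and 30.4 FPKM). In FL-LSKCD201+, 37 of 44 genes were higher than in BM-LSKCD201+, beside 7.78% of all genes in that comparison. Of 17 G1 regulators, 4 were higher and 5 lower, shares near those of all genes (17.5% and 27.2%). Cdkn1c rose together with Cdkn2b (7.53, 6.15 and 6.68 against 0, 0.0434 and 0 FPKM) and the cyclin gene Ccnd1 (26.8, 24.8 and 23.5 against 4.73, 6.86 and 5.87 FPKM). The cyclin gene Ccnd2 (21.8, 21.5 and 17.3 against 187, 204 and 202 FPKM), its kinase gene Cdk6 (2.17, 1.95 and 1.25 against 25.5, 26.6 and 25.04 FPKM) and the pocket protein gene Rbl2 (1.21, 1.13 and 1.48 against 25.96, 23.6 and 23.8 FPKM) fell. Ccng2, a cyclin gene of arrested cells, was lower without a call (37.6, 38.2 and 38.7 against 76.5, 73.6 and 64.8 FPKM, -0.89). Ccnd3 (0.93) and Cdk4 (0.85) did not reach the fold limit.

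Extracellular matrix genes were higher in 43 of 45 tested and lower in 0 by limma (1 at an unadjusted p under 0.05 with no fold limit), with a median of 3.02, beside 17.5% of all genes called higher. Of all 49 matrix genes listed, 37 averaged under 1 FPKM in BM-LSKCD201+ and 4 in D5-LSKCD201+. Genes near 0 in BM-LSKCD201+ could pass the filter only through their D5-LSKCD201+ level, so the share higher was partly set by it. Sparc was at 1429.8, 1394 and 1419 FPKM against 0, 1.78 and 2.502 FPKM. The basement membrane genes of vessels were high: Col18a1 was at 555, 548 and 529 against 0.565, 0.354 and 0.592 FPKM. Col4a1 was at 444, 391.8 and 401 against 5.91, 6.59 and 5.99 FPKM. Nid1 was at 82.4, 80.4 and 80.4 against 0, 0.0502 and 0.0622 FPKM. The fibronectin gene Fn1 was at 276, 251 and 246 against 0.173, 0.214 and 0.227 FPKM. The list summed to 3895 to 4059 FPKM in D5-LSKCD201+, 101 to 110.4 FPKM in BM-LSKCD201+ and 144 to 165 FPKM in FL-LSKCD201+. Because D5-LSKCD201+ cells had grown on OP9 cells, markers of stromal cells were measured beside these genes. The stromal list shares Col1a1, Col1a2, Col3a1, Dcn, Lum, Postn and Mfap5 with the matrix list, so its count and sum partly repeat the matrix result. Of 24 stromal markers, 18 were tested, 16 were higher and 1 was lower, and the list summed to 189.99 to 197 FPKM in D5-LSKCD201+ and 48.7 to 54.8 FPKM in BM-LSKCD201+. Of all 24, 19 averaged under 1 FPKM in BM-LSKCD201+ and 7 in D5-LSKCD201+, so the limit set by the filter holds here too. Acta2 was at 35.5, 42.3 and 40.3 against 0, 0.166 and 0.118 FPKM. Col1a1 was at 30.3, 30.7 and 28.4 against 0.143, 0.205 and 0.133 FPKM. Col1a2 was at 31.3, 28.4 and 28.9 against 0.377, 0.317 and 0.249 FPKM. The adipogenic factor gene Pparg was at 13.03, 13.8 and 13.6 against 1.18, 1.84 and 1.77 FPKM. Pdgfra, a defining receptor gene of stromal cells, stayed under 1 FPKM in every D5-LSKCD201+ library (0.689, 0.641 and 0.698 FPKM), as did Fap and Twist2. The member that fell was Cebpa, a factor gene of adipocytes and myeloid cells (0.544, 0.824 and 0.605 against 37.8, 42.8 and 39.99 FPKM), which made up most of the sum in BM-LSKCD201+: without it the other 23 genes summed to 189 to 196 FPKM in D5-LSKCD201+ and 10.9 to 12.3 FPKM in BM-LSKCD201+. Stromal transcripts were thus present, and their part in the matrix result was not tested.

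Pluripotency genes were near 0 to low. Of 22 genes, 14 were tested, 9 were higher and 2 lower. Sall4 was at 15.5, 16.1 and 14.4 FPKM in D5-LSKCD201+, beside a mean of 121 FPKM in the undifferentiated stem cells. Pou5f1, which codes for Oct4, was at 2.67, 1.77 and 2.58 FPKM beside 426 FPKM. Dppa5a was at 15.02, 22.2 and 20.2 FPKM beside 4801 FPKM. Its call against bone marrow was lost under several alternatives, among them leaving out D5-LSKCD201+ library 2 or 3. Dppa4 was at 11.6, 12.2 and 11.1 FPKM, and Gdf3 (0.163, 0.383 and 0.174 against 3.5004, 3.29 and 3.59 FPKM) and Klf4 (1.77, 2.41 and 2.09 against 5.703, 8.12 and 8.03 FPKM) fell. Klf2, the most abundant member and also a flow-response gene of endothelium, was not called (0.37). Nanog, Sox2 and Esrrb were under 1 FPKM in all libraries of both groups. In BM-LSKCD201+, Dppa5a was listed at 0, 5.37 and 8.04 FPKM and Pou5f1 at 0, 0.456 and 0.766 FPKM, so libraries 2 and 3 held small values where library 1 held 0. Without library 1 the log2 fold change of Dppa5a was 1.39, against 2.36 with it. Sparc and Cdh5 had the same pattern, and without BM-LSKCD201+ library 1 their log2 fold changes were 8.82 and 6.09, against 9.37 and 6.11 with it.

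Glycolysis and hypoxia genes were higher in 18 of 32 tested and lower in 5, with a median of 1.18. The lactate transporter gene Slc16a3 was at 277, 278 and 285 FPKM against 2.08, 3.88 and 4.08 FPKM (log2 fold change 6.05 ± 0.18 (SE), adjusted p = 6.02e-08). The glucose transporter gene Slc2a1 was at 439, 484 and 449 against 34.4, 43.8 and 44.8 FPKM. The lactate dehydrogenase gene Ldha was at 2126, 2215 and 2183 against 345, 374 and 356 FPKM. The hypoxia targets Ankrd37 (132, 121 and 125 against 3.57, 1.95 and 2.84 FPKM) and P4ha2 (22.5, 20.4 and 21.5 against 0.347, 0 and 0.151 FPKM) rose, while Car9 and Ndrg1 fell and Vegfa was not called (-0.33). Ldhb, the other lactate dehydrogenase subunit gene, was lower (14.2, 15.001 and 16.7 against 244, 262 and 257 FPKM), so that the 2 subunit genes moved in opposite directions. Pkm (1599, 1678 and 1657 against 723, 749.99 and 768 FPKM) was higher too.

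In the TGF-beta and BMP pathway, 13 of 24 tested genes were higher and 2 lower. The endothelial receptor gene Acvrl1 was at 57.9, 59.5 and 60.7 against 0.858, 1.37 and 1.04 FPKM. The ligand genes Bmp2 and Bmp4 were at 11.3, 11.9 and 11.3 against 0.152, 0.175 and 0.234 FPKM and at 10.4, 10.5 and 9.46 against 1.23, 0.130 and 0.128 FPKM. Their targets Id1 (166, 176 and 172 against 52.01, 64.8 and 60.6 FPKM) and Id3 (329.5, 324 and 335 against 66.9, 86.5 and 84.8 FPKM) rose, and Smad7, a target that inhibits the pathway, fell (3.004, 3.58 and 3.51 against 25.97, 26.6 and 25.9 FPKM), as did Ltbp3 (1.32, 1.46 and 1.23 against 16.2, 20.9 and 21.01 FPKM). Eng, the co-receptor gene of endothelium, was higher (208, 199 and 198 against 80.1, 78.8 and 80.8 FPKM). Of 30 DNA methylation and Polycomb genes tested, 2 were higher, 9 lower and 19 not called, and the share lower was near the 27.2% of all genes. Uhrf1, which brings DNA methyltransferase to replicating DNA, was at 72.5, 81.5 and 76.7 against 24.7, 18.3 and 18.7 FPKM. Pcgf2 was at 3.45, 2.904 and 3.38 against 0.616, 0.552 and 0.501 FPKM. The Polycomb genes Cbx7 (0.799, 0.670 and 1.48 against 23.3, 22.5 and 22.5 FPKM) and Bmi1 (1.62, 2.08 and 1.504 against 16.7, 14.4 and 14.5 FPKM), the last needed for HSC self-renewal, fell. Ezh2 (0.26) and Dnmt1 (0.71) were not called, and Rbbp4 (0.24) was the most abundant member.

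Of 12 housekeeping genes, 4 were higher, 4 lower and 4 not called, with a median of -0.19. The translation genes Eef1a1 (2591, 2525 and 2535 against 5449, 6053 and 6193 FPKM) and Rplp0 (525, 499 and 505 against 1769.6, 2072 and 2093 FPKM) fell, as did Hprt (Eef1a1 did not reach the fold limit under quantile normalization, at -0.34), and Pgk1, Tubb5, Gapdh and Actb rose. Actb was at 3022, 3079.8 and 3144 against 849, 903 and 963 FPKM. Ppia was at 4166, 3643 and 3881 against 2079, 2427 and 2421 FPKM (0.76, not called). Hprt (ENSMUSG00000025630, chromosome X, 52988137 to 53021659), the X-linked purine salvage gene, was at 5.66, 6.09 and 5.86 FPKM in D5-LSKCD201+ and 165, 168 and 161 FPKM in BM-LSKCD201+ (log2 fold change -4.59 ± 0.05 (SE), adjusted p = 1.04e-09), and at 238, 240.2 and 249.99 FPKM in FL-LSKCD201+ and 1.84, 1.15 and 1.66 FPKM in the undifferentiated stem cells. Low Hprt was thus shared by the stem cells and the cells made from them, and whether the stem cell line carries an intact Hprt gene is not given in the sources used here. Xist, the RNA of the inactive X chromosome, was under 1 FPKM in all 6 libraries, and the Y-linked genes Eif2s3y (23.9, 25.4 and 20.03 against 62.9, 62.2 and 59.95 FPKM), Ddx3y (3.94, 4.95 and 4.65 against 22.3, 19.5 and 19.96 FPKM), Kdm5d (0.183, 0.381 and 0.218 against 4.69, 4.27 and 4.33 FPKM) and Uty (2.44, 3.19 and 3.02 against 5.005, 3.49 and 4.02 FPKM, not called) were present in both groups.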

How the data were processed

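The deposited table gave FPKM per gene; the authors' methods name HISAT2, StringTie and Cuffdiff, and the submitters' processing notes name the builds GRCm38 and mm9. Gene positions are those of the table, with 1 added to each start, and are printed as GRCm38. The read depth is not given in the sources used here, and each group had 3 libraries. Values were tested as log2(FPKM + 1) with limma 3.58.1 in R 4.3.3 (moderated test with a trend, two-sided, Benjamini-Hochberg adjustment over all genes tested), after a filter at a mean of 0.5 FPKM. A call needed an adjusted p under 0.05 and a log2 fold change of at least 1. On simulated data with 13621 genes tested, the fit recovered 98% of genes changed by 2 and 100% of those changed by 3 on the log2 scale. Members and gene lists were chosen with earlier results of these data known. The text names the sort genes, genes the study names that belong to a list, and the 15 largest called changes in each direction. Those 15 were taken among genes whose values did not overlap between the groups. It also names in each list the 3 largest called changes in each direction and the 2 most abundant members. Other genes were named after their values were seen. Strain and cell origin were not separated. Alternatives were another pseudocount, filter, normalization and variance model, a replicate block, a fit over all groups, adjusted p alone and leaving out each library. Some genes that the rule names are not reported here.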

Additional observations from a re-analysis of the deposited data

How the results depend on the processing

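Of 450 counts of called list members (30 lists, 15 alternatives), 446 stayed within 1.5 times the count reported. With no fold limit, 11486 genes passed the adjusted p (4714 higher, 6772 lower, 41.0% of them higher), 7446 were called in FL-LSKCD201+ against BM-LSKCD201+, and the Notch list had 28 members called, the Hox A and B list 14, the G1 list 15 and the DNA methylation and Polycomb list 23. Quantile normalization made 49.0% of called genes higher, against 39.1%, and turned the direction of 3 genes that were not called: Tal1 (0.24), Il3ra (0.22) and Hoxb4 (0.0752). Over 268 named genes and the 15 alternatives, calls were lost in 9 values over 3 genes (Procr, Dppa5a and Eef1a1) and gained in 54 values over 41 genes, most of them where the fold limit was absent. Leaving out 1 library gave 2338 to 2423 genes higher and 3676 to 3782 lower. Averaging BM-LSKCD201+ libraries 2 and 3 as 1 sample, chosen after seeing the data, gave 2415 higher and 3676 lower. Same-numbered libraries did not deviate together (correlations of -0.0924, -0.0951 and 0.0365). These values gave no sign that the numbers pair the samples, but with 3 libraries in a group they cannot exclude it. With the replicate block 2405 genes were higher and 3752 lower. Differences in read depth could not be examined, since only FPKM were used.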

Other observations

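Further gene families were chosen after their values were seen. All 9 tested MHC class II genes were lower in D5-LSKCD201+ and 0 were higher by limma, with a median of -5.66. Among interferon-induced GTPase genes, 13 of 15 were lower and 2 higher, and among Gimap genes, GTPases of lymphocytes, 7 of 8 were lower and 1 higher. All 5 tested Igfbp genes, whose products bind insulin-like growth factors, were higher, with a median of 4.47. Of 36 tested Nduf genes, which code for subunits of respiratory complex I, none was called, and their median was 0.02. These values stand beside 17.5% of all genes called higher and 27.2% called lower.

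Ribosomal protein genes had a median of -0.81, with 32 of 86 lower and 2 higher. Several of these genes have near-identical copies, and their values are uncertain. Rps3a1 had a mean of 154 FPKM in D5-LSKCD201+ and 2134 FPKM in BM-LSKCD201+, while its copy Rps3a2 had 454 and 6.14 FPKM, and the 3 Rps3a copies summed to 790.1 and 2170 FPKM. Rpl34 had 29.3 against 380 FPKM and Rpl34-ps1 160 against 3.11 FPKM. The ferritin light chain gene Ftl1 had 644 against 5376 FPKM and Ftl2-ps 1146 against 13.0 FPKM. At these copies the stem cells, from which D5-LSKCD201+ were made, had the pattern of D5-LSKCD201+ (Rps3a2 at 486 FPKM), and FL-LSKCD201+ had that of BM-LSKCD201+ (Rps3a2 at 4.84 FPKM). Strain and origin from stem cells cannot be told apart here.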
